A study of Mus musculus with 12 samples.

Results

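The immediate early genes examined here are the 10 genes Fos, Fosb, Jun, Junb, Atf3, Egr1, Ier2, Dusp1, Zfp36 and Btg2. They were taken from a named list, and every probe set annotated to one of them alone was used, which gave 12 of the 45037 probe sets tested and 10 of 18193 named genes. Jun and Btg2 had 2 probe sets each, the other 8 genes had 1 each, and none of the 12 was shared with another gene. The arrays measured RNA of green fluorescent cells sorted from the gonads of mouse embryos that carried the enhanced green fluorescent protein under the SF1 promoter (pSF1-eGFP). SF1 is the product of Nr5a1, a nuclear receptor of gonadal somatic cells. There were 4 groups of 3 arrays: females at 10.5 days post coitum (dpc), males at 10.5 dpc, females at 11.5 dpc and males at 11.5 dpc, and all RNA was amplified over 2 rounds. The labels name no strain and do not say whether the arrays of a group come from separate embryos or pools, so a p-value here weighs a difference against array-to-array spread that may be technical.

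Immediate early genes are switched on within minutes of a stimulus by factors that are already in the cell, without new protein synthesis. Growth factors reach them through receptor tyrosine kinases and the ERK kinases, which act on serum response factor and its ETS partners, and calcium or cyclic AMP reaches them through CREB at the cyclic AMP response element (CRE). Stress kinases reach the same genes, and enzymatic dissociation and sorting of a tissue are known to raise their RNA. Fos, Fosb, Jun, Junb and Atf3 encode leucine zipper proteins of the AP-1 and ATF families, Egr1 encodes a zinc finger transcription factor, and Ier2 a nuclear protein. Dusp1, Zfp36 and Btg2 act as brakes: a phosphatase of MAP kinases, a protein that directs decay of AU-rich mRNAs, and an antiproliferative partner of the mRNA deadenylase.

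The sequences before the transcript starts of 4 members are shown because these genes went different ways in the arrays: Fos was lower at the later age, Junb and Btg2 were higher, and Dusp1 passed the test between the ages in males and not in females. The set of RefSeq promoter windows used here (build GRCm38.p6) held 8 of the 10 members, without Ier2 and Egr1. The 250 bases upstream of the start lie at chr12:85473640-85473889 (plus strand) for Fos, chr8:84978749-84978998 (minus strand) for Junb, chr1:134079156-134079405 (minus strand) for Btg2 and chr17:26508473-26508722 (minus strand) for Dusp1. They are written 5′ to 3′ on the gene's strand. Capitals mark matches on either strand to the CRE (TGACGTCA), its core (TGACG), the TATA box (TATAAA), the CCAAT box (CCAAT) and the GC box (GGGCGG).
Fos: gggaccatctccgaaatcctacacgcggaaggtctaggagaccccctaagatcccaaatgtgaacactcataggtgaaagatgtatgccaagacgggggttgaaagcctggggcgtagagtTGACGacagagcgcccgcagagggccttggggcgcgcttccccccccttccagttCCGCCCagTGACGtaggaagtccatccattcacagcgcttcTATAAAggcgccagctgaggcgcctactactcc
Junb: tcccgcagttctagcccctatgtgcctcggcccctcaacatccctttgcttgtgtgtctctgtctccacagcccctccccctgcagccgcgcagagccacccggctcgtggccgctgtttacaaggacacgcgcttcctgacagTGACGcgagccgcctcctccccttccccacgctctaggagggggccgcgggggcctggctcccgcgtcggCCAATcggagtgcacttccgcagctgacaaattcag
Btg2: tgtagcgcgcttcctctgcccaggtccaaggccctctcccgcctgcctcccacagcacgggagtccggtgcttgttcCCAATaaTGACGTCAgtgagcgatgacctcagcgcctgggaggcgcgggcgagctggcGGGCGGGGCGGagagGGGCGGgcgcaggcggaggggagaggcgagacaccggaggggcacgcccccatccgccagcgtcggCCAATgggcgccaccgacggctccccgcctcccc
Dusp1: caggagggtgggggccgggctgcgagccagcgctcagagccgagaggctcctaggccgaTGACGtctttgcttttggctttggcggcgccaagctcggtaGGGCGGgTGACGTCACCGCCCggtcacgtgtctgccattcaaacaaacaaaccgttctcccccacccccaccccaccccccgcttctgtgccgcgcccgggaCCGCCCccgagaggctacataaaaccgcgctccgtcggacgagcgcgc

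The CRE was present in the Btg2 window, 166 bases before the start, and in the Dusp1 window, 143 bases before it. It was present in 1.55% of 32851 RefSeq windows of the same length. Its core TGACG, which each CRE holds on both strands, was found in 6 of the 8 member windows (Fos, Fosb, Junb, Atf3, Btg2 and Dusp1), against 17.8% of all windows. In Fos it lay 66 and 129 bases before the start, with the TATA box 33 bases before it. The GC box was in 7 of the 8 windows against 32.7% of all, the CCAAT box in 3 against 33.8%, and TATAAA in 1 against 12.4%. The CArG box, the binding sequence of serum response factor, was found in 1 member window, that of Zfp36, against 1.47% of all. Bases further than 250 before a start were not searched, nor were Ier2 and Egr1, so a member without a match here may hold one elsewhere. The Fosb window reaches into the annotated gene. The AP-1 sequence TGACTCA was in none of the 8, against 4.46% of all. These are matches of letters in a short window, and no binding was measured.

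**Figure D1:**
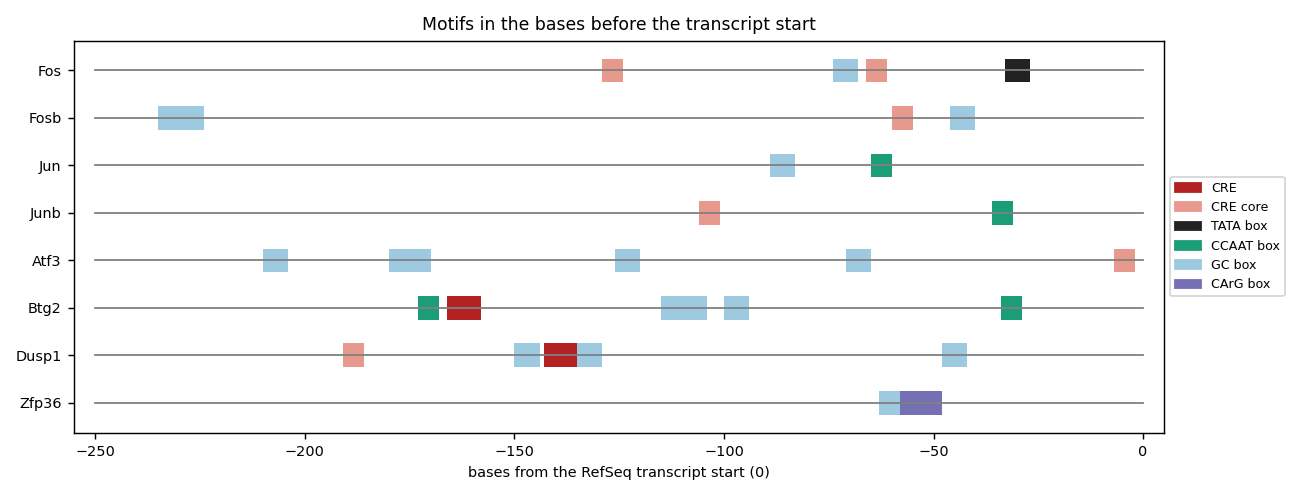
Matches to 6 motifs in the 250 bases before the RefSeq transcript start of 8 immediate early genes, with the distance from the start in bases on the x axis and 1 line per gene. The full CRE appears in Btg2 and Dusp1, and the core alone in Fos, Fosb, Junb and Atf3.

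The listed markers of the gonadal soma gave signal in the sorted cells. All 7 measured genes of that list (Nr5a1, Gata4, Wt1, Lhx9, Emx2, Cbx2 and Numb) had group means above 8.58, the intensity under which the dimmest 25% of probe sets lie, in every group. So did the 6 germ cell markers, and this level thus does not tell cell types apart. The summed values that follow are of the gonadal list. The 7 gonadal genes had a summed intensity from 14719 to 14972 in females and from 19339 to 19630 in males at 10.5 dpc, and from 11937 to 12478 and from 9066 to 9250 at 11.5 dpc. The genes did not share this fall. With age 3 rose and 4 fell in females, and 1 rose and 4 fell in males. Nr5a1 rose, from means of 378 to 549 in females and 625 to 748 in males. The bright Lhx9 (6668 to 5379 and 7602 to 2769) and Emx2 (3691 to 1169 and 4915 to 613) fell. In males 1 of 2 Numb probe sets gave the opposite call. Other cell types were not equal between the groups. The sum of 7 neural markers was 9029 to 9537 in females and 2157 to 2288 in males at 10.5 dpc, and 435 to 487 and 439 to 462 at 11.5 dpc. That of 6 germ cell markers was 3135 to 3347 and 881 to 904 at 10.5 dpc, and 1382 to 1422 and 1086 to 1134 at 11.5 dpc. The 5 erythroid markers summed to 6210 to 6702 and 1141 to 1268, then to 15229 to 15481 and 6175 to 6531. The 7 endothelial markers, 3 of which lay under that intensity, summed to 1035 to 1063 and 392 to 430, then to 927 to 1004 and 993 to 1082. The 7 markers of macrophages and white blood cells summed to between 375 and 487 in all groups. The ratio of 3′ to 5′ control probe sets, a sign of RNA length after amplification, was 5.19 to 5.41 for actin in females at 10.5 dpc and 7.4 to 10.1 in the other groups. For Gapdh it was 2.58 to 2.77 against 3.82 to 4.78. The part of these differences in the results that follow was not tested, and in such bulk samples fewer cells of a type and less RNA per cell cannot be told apart.

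**Figure D2:**
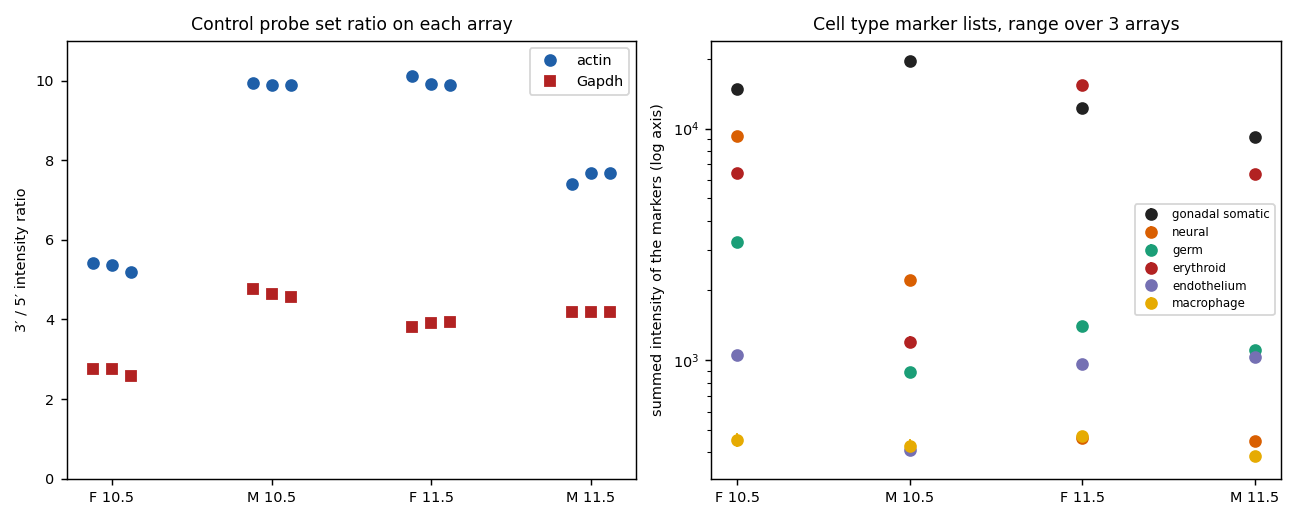
Left, the 3′ to 5′ intensity ratio of the actin and Gapdh control probe sets on each of the 12 arrays by group (F, female, M, male, age in dpc). Right, the summed intensity of 6 cell type marker lists on a log axis, with bars for the range over 3 arrays; females at 10.5 dpc have the lowest ratios and the highest neural and germ cell sums.

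Over the day from 10.5 to 11.5 dpc the members did not move as a block. Fosb, Junb, Btg2, Egr1 and Atf3 rose in both sexes, Fos fell in both, and Ier2 fell in females and rose in males. In females 6 of the 12 probe sets rose and 3 fell, against 21% of all probe sets called higher and 20.8% called lower. In males 10 rose and 2 fell, against 20.2% and 26.5%. The members are mostly bright, and among the 22029 probe sets with a mean intensity of at least 50 the called share was 72.7% in females and 72.1% in males, so a count of 9 of 12 in females is near that of other bright probe sets. The members' median change was 0.21 in females and 0.56 in males on the log2 scale, where all probe sets had -0.01 and -0.05. A change of at least 2-fold upward was seen for 3 probe sets in females and 4 in males, and for none downward. Among all 18193 genes, each counted by 1 probe set, 1062 in females and 1066 in males rose at least 2-fold, and 1385 and 960 fell as much. With each array centred on its median the share of rises among all calls went from 50.3% to 31.9% in females and from 43.3% to 27.9% in males, while the 12 probe sets kept the counts given here. The 2 sex comparisons and the 2 age comparisons share groups, so each is given by its own values.

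Fos, the partner of Jun in AP-1 and the best known gene of the class, gave strong signal in every array and fell with age. Its probe set (1423100_at) read 21030, 20271 and 20788 in females and 18756, 18338 and 18315 in males at 10.5 dpc. At 11.5 dpc it read 13779, 13921 and 13955 in females and 13020, 13296 and 14542 in males. The ages did not overlap in either sex, nor did the sexes at 10.5 dpc, while at 11.5 dpc the sexes overlapped. The log2 change with age was -0.58 ± 0.04 (SE, n = 3 arrays per group, as for all errors below) in females (adjusted p = 6.1e-07) and -0.44 ± 0.04 in males (adjusted p = 5.6e-06), a fall of 1.49-fold and 1.36-fold. At 10.5 dpc males were lower by -0.16 ± 0.04 (adjusted p = 0.0081), and at 11.5 dpc the difference was -0.03 ± 0.04 (adjusted p = 0.6). Neural markers were highest in the same 10.5 dpc groups (sums above), and their part in the Fos values was not tested.

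Fosb, a close relative of Fos, went the opposite way. Its probe set (1422134_at) stood at 131, 108 and 121 in females and 90.8, 94.6 and 116 in males at 10.5 dpc, and at 366, 345 and 322 and 368, 450 and 411 at 11.5 dpc. Every array of the later age was above every array of the earlier one. The rise was 1.52 ± 0.11 in females (adjusted p = 7.9e-07) and 2.02 ± 0.11 in males (adjusted p = 1.1e-07), or 2.86-fold and 4.06-fold. Between the sexes Fosb missed the threshold at both ages, with -0.26 ± 0.11 at 10.5 dpc (adjusted p = 0.1) and 0.25 ± 0.11 at 11.5 dpc (adjusted p = 0.11). Leaving out the third male array of 10.5 dpc gave -0.36 at 10.5 dpc, past the threshold (adjusted p = 0.021).

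Junb, the AP-1 subunit that often opposes Jun, also rose, from readings below the array medians. Its probe set (1415899_at) read 22.2, 34.5 and 19.2 in females and 15, 12.9 and 16.3 in males at 10.5 dpc, where the array medians were 41.2 to 43.9. At 11.5 dpc it read 81.2, 95.8 and 67 in females and 59.8, 50.1 and 60.8 in males, so neither the ages nor the sexes overlapped. The rise was 1.67 ± 0.2 in females (adjusted p = 4.3e-05) and 1.88 ± 0.2 in males (adjusted p = 1.9e-05). Males were lower at 10.5 dpc by -0.71 ± 0.2 (adjusted p = 0.019), a call lost with a pseudocount of 16 (-0.41, adjusted p = 0.055), with only the groups compared in the fit (adjusted p = 0.06) or without the second male array of 10.5 dpc (-0.62, adjusted p = 0.068). At 11.5 dpc the difference of -0.5 ± 0.2 did not pass (adjusted p = 0.085) and passed with only those groups in the fit (adjusted p = 0.044). Changes of probe sets this dim are understated on the log2(value + 1) scale.

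For Jun, the main partner of Fos, the 2 probe sets disagreed. The brighter one (1417409_at) read 9599, 9736 and 9966 in females and 5824, 5788 and 5701 in males at 10.5 dpc, and 7035, 6944 and 7072 and 7135, 7359 and 7139 at 11.5 dpc. The other (1448694_at) read 2377, 2427 and 2399 and 2531, 2523 and 2352, then 2382, 2417 and 2337 and 2078, 2177 and 2146. So the first set females apart as the highest and males as the lowest group at 10.5 dpc, and the second set apart males at 11.5 dpc as the lowest. At 10.5 dpc the male minus female difference was -0.76 ± 0.027 (adjusted p = 1.7e-08) by the first and 0.04 ± 0.035 (adjusted p = 0.5) by the second. In females the change with age was -0.48 ± 0.027 (adjusted p = 1.2e-07) and -0.01 ± 0.035 (adjusted p = 0.88). In males the calls were opposite, 0.32 ± 0.027 (adjusted p = 2.9e-06) and -0.21 ± 0.035 (adjusted p = 0.00055), and the mean of both did not pass (0.06, adjusted p = 0.11). Over the 12 arrays the 2 probe sets had a Pearson r of -0.089, so no direction is given for Jun as a gene.

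Atf3, a stress-induced repressor of the ATF family, rose in both sexes from a higher start in males. It read (1449363_at) 1488, 1568 and 1519 in females and 1905, 1834 and 1812 in males at 10.5 dpc, then 2282, 2253 and 2185 and 2182, 2219 and 2306. The sexes did not overlap at the first age and overlapped at the second. The rise was 0.55 ± 0.035 in females (adjusted p = 2.8e-07) and 0.27 ± 0.035 in males (adjusted p = 7.9e-05). Atf3 was the one member called higher in males at 10.5 dpc, by 0.28 ± 0.035 (adjusted p = 9.2e-05).

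Egr1, which is induced by the same signals as Fos, rose with age in both sexes. Its probe set (1417065_at) read 1483, 1322 and 1324 in females and 1472, 1387 and 1382 in males at 10.5 dpc, and 1730, 1888 and 1714 and 1856, 2189 and 2006 at 11.5 dpc. The ages were apart in each sex, and the sexes overlapped at each age. The change was 0.37 ± 0.069 in females (adjusted p = 0.0011) and 0.51 ± 0.069 in males (adjusted p = 0.00012), or 1.29-fold and 1.42-fold. Between the sexes Egr1 missed the threshold, with 0.04 ± 0.069 at 10.5 dpc (adjusted p = 0.75) and 0.18 ± 0.069 at 11.5 dpc (adjusted p = 0.07). The latter passed without female array 2 (0.22, adjusted p = 0.044) or male array 1 of 11.5 dpc (0.24, adjusted p = 0.026), and with only probe sets of a mean intensity of at least 50 tested (adjusted p = 0.043).

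Ier2 had the largest sex difference among the members. It read (1416442_at) 5359, 5608 and 5111 in females and 2271, 2300 and 2353 in males at 10.5 dpc, and 4617, 4730 and 4671 and 3951, 4131 and 4021 at 11.5 dpc. All 4 groups were apart, with males at 10.5 dpc lowest. The male minus female difference was -1.21 ± 0.037 at 10.5 dpc (adjusted p = 7.8e-09), a 2.32-fold lower level, and -0.21 ± 0.037 at 11.5 dpc (adjusted p = 0.001). Over the day Ier2 fell in females (-0.2 ± 0.037, adjusted p = 0.0012) and rose in males (0.81 ± 0.037, adjusted p = 3.3e-08).

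Btg2 rose in both sexes by both of its probe sets. The first (1416250_at) read 1732, 1576 and 1650 in females and 905, 951 and 900 in males at 10.5 dpc, and 4229, 4610 and 4161 and 3875, 3946 and 4108 at 11.5 dpc. The second (1448272_at) read 1703, 1649 and 1686 and 1336, 1301 and 1274, then 2382, 2659 and 2419 and 2480, 2675 and 2742. In both, males at 10.5 dpc were lowest and the later age was highest, and r between the probe sets was 0.989 over the 12 arrays. The sizes differed: the rise was 1.39 ± 0.049 and 0.56 ± 0.05 in females (adjusted p = 4.6e-09 and 3.9e-06), and 2.11 ± 0.049 and 1.01 ± 0.05 in males (adjusted p = 6.1e-10 and 5.6e-08). At 10.5 dpc males were lower by -0.85 ± 0.049 and -0.37 ± 0.05 (adjusted p = 3.6e-07 and 0.00017). At 11.5 dpc neither probe set passed between the sexes (-0.12 ± 0.049 and 0.08 ± 0.05, adjusted p = 0.085 and 0.25). The second passed without female array 2 of that age (0.13, adjusted p = 0.048).

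Dusp1 and Zfp36, 2 brakes on this response, passed with age in males and not in females. Dusp1 (1448830_at) read 2289, 2108 and 1998 in females and 1947, 1846 and 1767 in males at 10.5 dpc, and 2146, 2314 and 2078 and 2369, 2259 and 2388 at 11.5 dpc. The female ages overlapped and the male ages did not. The change was 0.03 ± 0.06 in females (adjusted p = 0.8) and 0.34 ± 0.06 in males (adjusted p = 0.00085). Males were lower at 10.5 dpc by -0.2 ± 0.06 (adjusted p = 0.024). That call was lost without female array 1 or 2 of 10.5 dpc (-0.15 and -0.21, adjusted p = 0.089 and 0.05), without male array 2 or 3 (-0.2 and -0.17, adjusted p = 0.06 and 0.09), and with only those groups in the fit (adjusted p = 0.063).

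Zfp36 (1452519_a_at) read 337, 334 and 313 in females and 217, 219 and 215 in males at 10.5 dpc, and 341, 343 and 341 and 327, 327 and 346 at 11.5 dpc. Males at 10.5 dpc stood apart from the other 3 groups, which overlapped one with the next. The difference there was -0.59 ± 0.035 (adjusted p = 4.2e-07), or 1.51-fold lower. The change with age was 0.06 ± 0.035 in females (adjusted p = 0.24) and 0.62 ± 0.035 in males (adjusted p = 1.7e-07).

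**Figure D3:**
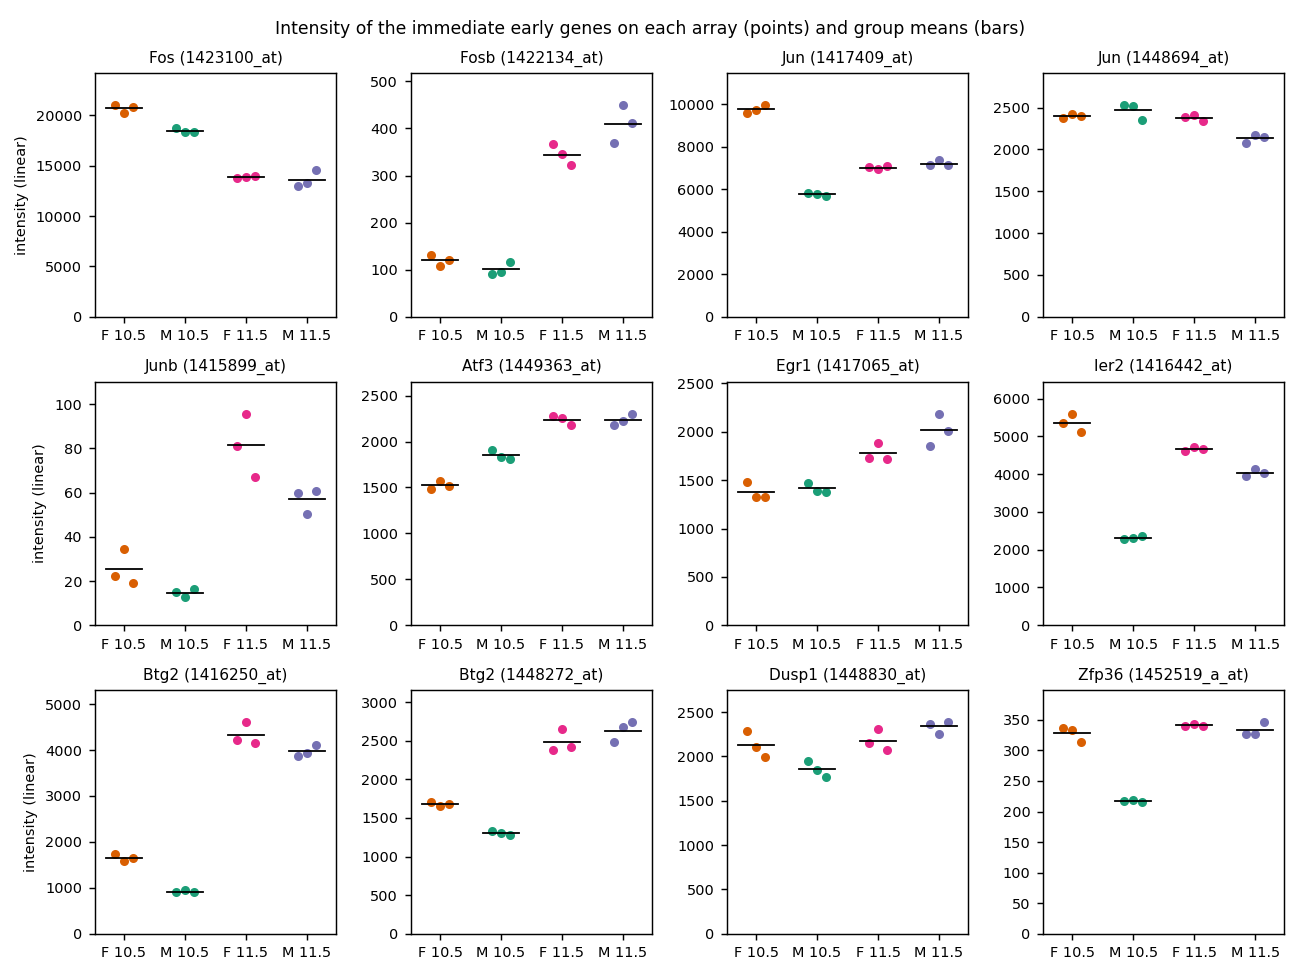
Intensity of the 12 probe sets of the immediate early genes on a linear axis from 0, with 1 point per array (n = 3 per group) and a bar at each group mean. Fos falls from 10.5 to 11.5 dpc, Fosb, Junb and Btg2 rise, and Ier2, Zfp36 and Btg2 are lowest in males at 10.5 dpc.

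Counted together, 8 of the 12 probe sets were lower and 1 higher in males at 10.5 dpc, where 16.3% of all probe sets were called lower and 17.9% higher. Among probe sets with a mean intensity of at least 50, 29.2% were lower and 32.5% higher. The members' median was -0.31, against 0.02 over all probe sets, and Ier2 was past 2-fold. The arrays of the sexes did not overlap for 9 of the 12 probe sets, against 41.4% of all. The count of called members was 7 with only the groups compared in the fit. The lower 3′ to 5′ ratios in females at 10.5 dpc lay in the same comparison. So did their higher neural, germ cell, erythroid and endothelial sums and their lower gonadal sum. The part of these differences was not tested.

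At 11.5 dpc only 2 of the 12 probe sets passed between the sexes, Ier2 and the dimmer Jun probe set, both lower in males (-0.16 ± 0.035 for the latter, adjusted p = 0.0051). Of all probe sets 16.7% were called lower and 17.7% higher, and 59.8% of those with a mean intensity of at least 50 were called. The median of the members was -0.02, against -0.03 over all. Without the second female array of 11.5 dpc the count was 4, and with the probe sets of a gene averaged it was 1 of 10 genes. Zfp36 (-0.03 ± 0.035, adjusted p = 0.49), Atf3 (0 ± 0.035, adjusted p = 0.95) and Dusp1 (0.1 ± 0.06, adjusted p = 0.23) did not pass.

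The change with age differed between the sexes for 9 of the 12 probe sets by the test of that difference, against 28.1% of all probe sets and 49.5% of those with a mean intensity of at least 50. It was more upward in males for 7 (Ier2, the brighter Jun probe set, both Btg2 probe sets, Zfp36, Fosb and Dusp1) and less upward for 2 (Atf3 and the dimmer Jun probe set). Egr1, Fos and Junb did not pass (adjusted p = 0.32, 0.11 and 0.6). The Fosb call was lost in 8 of the 12 fits without 1 array, all but those without female array 2 or male array 3 of 10.5 dpc or array 1 of either sex of 11.5 dpc (0.44 to 0.51 where lost). The Dusp1 call was lost without male array 3 of 10.5 dpc or array 3 of either sex of 11.5 dpc (0.27 to 0.29).

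**Figure D4:**
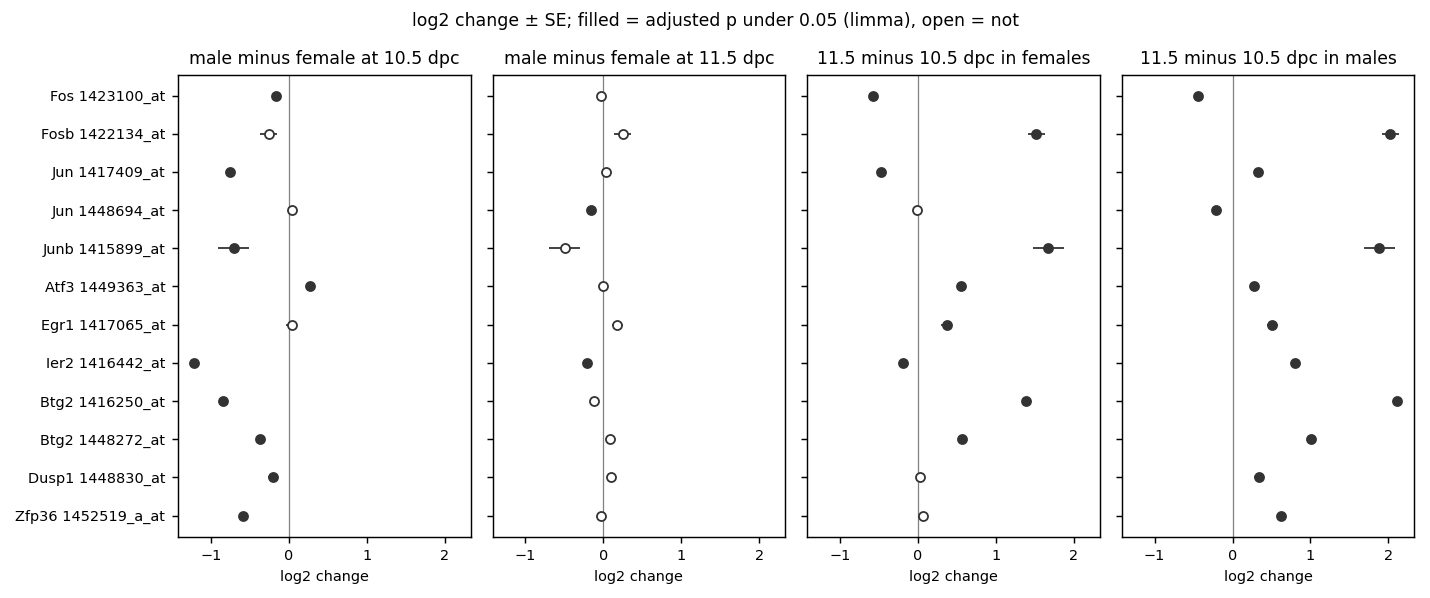
The log2 change and its SE for each member probe set in the 2 sex comparisons and the 2 age comparisons, filled where the limma adjusted p was under 0.05. At 10.5 dpc 8 of 12 lie below 0 and are filled, at 11.5 dpc 2 are, and with age in males 10 are filled above 0.

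The members fell into different patterns over the 12 arrays. With 1 probe set per gene, Btg2 and Junb had r = 0.96, Btg2 and Fosb 0.956, Egr1 and Fosb 0.934, and Ier2 and Zfp36 0.932. Fos ran against Fosb (-0.925) and Atf3 (-0.949). The arrays fall into 4 tight groups, so these values describe 4 group means and little more. The genes most like each member were sought among the 3792 or 3793 genes with a mean intensity of at least 100 and a span of at least 1 on the log2 scale. Dusp1, Egr1, Atf3, Fos, Zfp36 and Jun themselves spanned only 0.34 to 0.76, so genes with changes as small as theirs were left out. The likeness is thus of pattern and not of size. For Fos they were Uba3 (0.993), Pou4f1 (0.991), a transcription factor of sensory neurons, and the kinase Clk4 (0.991). The mean level of Pou4f1 was 3307 in females and 1246 in males of the earlier age, and 122 and 143 a day later. For Egr1 they were the receptors Tgfbr2 (0.98) and Fzd2 (0.975) and Spsb3 (0.975), and for Fosb Timp2 (0.994), P2rx4 (0.992) and Cyp1b1 (0.991). Ier2 was followed by the proteasome subunit Psmb5 (0.993), the ribosomal protein Rpl35 (0.992) and the mitochondrial protease Clpp (0.991). Zfp36 was followed by Vkorc1 (0.991), Procr (0.989) and Dad1 (0.988), and the brighter Jun probe set, 1417409_at, by Nme1 (0.994), Prss23 (0.983) and Fbl (0.983), with the other Jun probe set not used here. For Btg2 they were Camk2n1 (0.999), Ndufs8 (0.998) and Dact1 (0.995), for Junb Zcchc17 (0.987), Plekhf1 (0.981) and Aopep (0.978), for Atf3 Zfp362 (0.994), Rasa3 (0.993) and Tnip1 (0.991), and for Dusp1 Stard10 (0.92), Ctu2 (0.918) and Vcan (0.904).

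Most other immediate early genes rose with age. Of 38 measured genes of that list 29 rose and 5 fell in females, where 22.4% of all genes rose and 27% fell, and 32 rose and 3 fell in males, where 23.3% rose and 29.7% fell. Opposite calls came from 1 of 4 Ccn1 probe sets in both sexes and 1 of 3 Tiparp probe sets in males. All genes include dim ones. Among probe sets with a mean intensity of at least 50, 36% rose and 36.8% fell in females, and 35.5% and 36.6% in males. Between the sexes 32.5% of these were higher and 29.2% lower in males at 10.5 dpc, and 32.3% and 27.5% at 11.5 dpc. These shares also stand beside the counts of the lists below. The medians were 0.82 and 1.04, against -0.01 and -0.05 over all genes. At least 2-fold rises were seen for 15 and 19 genes, against 1062 and 1066 of all 18193. The orphan nuclear receptor gene Nr4a3 went from a mean intensity of 18.5 to 614 in females (5 ± 0.17, adjusted p = 3e-09) and from 14.2 to 941 in males (5.97 ± 0.17, adjusted p = 1.5e-09). Egr3, a relative of Egr1, rose by 2.88 ± 0.17 and 4.24 ± 0.17. Tob1, a relative of Btg2, fell by -1.05 ± 0.095 and -0.81 ± 0.095, and Cebpd by -0.49 ± 0.031 and -0.83 ± 0.031. Klf10 fell in females (-0.52 ± 0.084) and rose in males (0.27 ± 0.084). Among the other AP-1 subunits Fosl2 rose by 2.32 ± 0.04 and 2.15 ± 0.04 and Jund by 0.9 ± 0.053 and 0.21 ± 0.053, while Fosl1 lay at 4.18 to 4.49 in all groups, under the 8.58 that bounds the dimmest 25% of probe sets. Between the sexes 17 of the 38 were lower and 8 higher in males at 10.5 dpc, against 22.8% and 17.5% of all genes, and 15 were lower and 11 higher at 11.5 dpc, against 20.9% and 19.1%. Opposite calls came from 1 of 5 Klf6 probe sets at both ages. At 11.5 dpc they also came from 1 of 6 Nr4a2 and 1 of 3 Ier5 probe sets. Myc (-1.31 ± 0.09 and -1.1 ± 0.09) and the BMP target Id1 (-1.26 ± 0.054 and -1.51 ± 0.054) were lower in males at both ages. Higher at both ages were the matricellular genes Ccn1 (0.84 ± 0.042 and 0.42 ± 0.042) and Ccn2 (0.3 ± 0.058 and 1.07 ± 0.058), and Nr4a1 (0.54 ± 0.056 and 0.41 ± 0.056). The pseudokinase gene Trib1 was higher in males at 11.5 dpc (0.8 ± 0.13).

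Most FGF and ERK pathway targets, which include the feedback inhibitors of growth factor signalling, passed upward with age, with exceptions in both sexes. Of 15 measured genes 10 rose and 3 fell in females (median 0.4), against 22.4% and 27% of all genes. In males 13 rose and 1 fell (median 0.91), against 23.3% and 29.7%. Spry4, a feedback inhibitor of receptor tyrosine kinases, rose by 3.12 ± 0.16 in females and 3.65 ± 0.16 in males. The ERK phosphatase gene Dusp5 rose by 2.03 ± 0.12 and 2.38 ± 0.12. Etv5, an FGF-induced ETS factor, rose by 0.23 ± 0.079 in females and 3.04 ± 0.079 in males. Dusp6, another ERK phosphatase, fell in females (-0.72 ± 0.069) and rose in males (0.73 ± 0.069). Fgfbp3, an FGF-binding protein, fell in both sexes (-1.72 ± 0.082 and -0.3 ± 0.082). At 10.5 dpc 8 of the 15 were lower and 2 higher in males (median -0.43), where 22.8% of all genes were lower and 17.5% higher, with Ccnd1, the ERK-responsive cyclin, at -1.51 ± 0.071 and Fgfbp3 at -1.55 ± 0.082. Spred2 (0.44 ± 0.092) and Errfi1 (0.13 ± 0.031), both inhibitors of receptor signalling, were higher. At 11.5 dpc 6 were higher and 3 lower (median -0.01), against 19.1% and 20.9% of all genes, with Etv5 at 1.53 ± 0.079, Dusp6 at 0.82 ± 0.069, Spry2 at -0.32 ± 0.053 and Spry1 at -0.31 ± 0.097.

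Ligands and receptors were split. Of 29 measured genes 13 rose and 12 fell in females (median 0.1), where 22.4% of all genes rose and 27% fell. In males 15 rose and 8 fell (median 0.39), where 23.3% rose and 29.7% fell. Some of these calls rest on the probe set chosen. In females the opposite call came from 3 of 4 Kitl, 1 of 2 Vegfa, 1 of 4 Igf1 and 1 of 3 Pdgfra probe sets. In males it came from 3 of 4 Kitl, 1 of 2 Vegfa, 2 of 4 Igf1, 1 of 3 Pdgfra and 2 of 5 Fgfr4 probe sets. The growth factor gene Fgf18 rose by 2.96 ± 0.14 in females and 3.33 ± 0.14 in males. Pdgfa rose by 2.38 ± 0.1 and 2.41 ± 0.1, and Fgf9 by 0.68 ± 0.072 and 3.72 ± 0.072. The ligand gene Nrg1 fell by -0.93 ± 0.088 in females and -0.85 ± 0.088 in males, and Pdgfc by -0.63 ± 0.048 and -1.11 ± 0.048. The receptor gene Met fell in females (-1.23 ± 0.089) and did not pass in males. Igf1r fell in females (-0.57 ± 0.06), where 3 of 5 probe sets gave the opposite call, and in males (-0.88 ± 0.06), where 1 of 5 did. Between the sexes 9 were higher and 10 lower in males at 10.5 dpc (median -0.03), against 17.5% and 22.8% of all genes, such as Pdgfra (0.75 ± 0.046), Fgfr2 (0.74 ± 0.23), Met (-1.03 ± 0.089) and Erbb3 (-0.91 ± 0.17). Here 2 of 4 Igf1, 1 of 2 Igf2, 2 of 4 Kitl, 1 of 2 Vegfa and 1 of 5 Igf1r probe sets gave the opposite call. At 11.5 dpc 11 were higher and 5 lower (median 0.08), against 19.1% and 20.9%. Fgf9 stood at 3.09 ± 0.072 and Erbb3 at 1.64 ± 0.17, and Fgfr3 at -0.33 ± 0.11. Pdgfa stood at -0.51 ± 0.1, with the opposite call from 1 of its 2 probe sets. The same held for Igf2, which was also counted lower.

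Regulators upstream of the immediate early genes showed no common direction. Of 15 measured kinase and transcription factor genes 6 rose and 5 fell in females (median 0.01), against 22.4% and 27% of all genes, and 7 rose and 6 fell in males (median 0.14), against 23.3% and 29.7%. Opposite calls came from 2 of 4 Crem probe sets in both sexes, and from 2 of 5 Mapk8 probe sets in females and 1 of 5 in males. Srf, which encodes serum response factor, rose by 1.29 ± 0.092 in females and 1.51 ± 0.092 in males. Elk4 rose by 1 ± 0.057 and 0.32 ± 0.057 and Elk3 by 0.89 ± 0.057 and 1.49 ± 0.057, both ETS partners of that factor. Map2k1, the kinase that activates ERK, fell by -1.82 ± 0.062 in females and -1.25 ± 0.062 in males. Creb1 fell by -1.35 ± 0.059 and -1.06 ± 0.059, and Mapk9 by -1.09 ± 0.029 and -1.12 ± 0.029. In males 5 were higher and 7 lower than in females at 10.5 dpc (median -0.14), against 17.5% and 22.8% of all genes. At 11.5 dpc 6 were higher and 2 lower (median 0.05), against 19.1% and 20.9%. Opposite calls came from 1 of 3 Mapk9 and 1 of 6 Creb1 probe sets at 10.5 dpc, and 1 of 2 Map2k2 probe sets at 11.5 dpc. Mrtfa, a coactivator of serum response factor, was higher in males at both ages (1.62 ± 0.091 and 0.84 ± 0.091), and the ERK-dependent kinase Rps6ka3 was lower (-0.6 ± 0.056 and -0.74 ± 0.056). Elk4 (0.71 ± 0.057) and Crem (-0.89 ± 0.099) at 10.5 dpc, and Mapk14 (0.56 ± 0.056) and Mrtfb (-0.29 ± 0.038) at 11.5 dpc, completed the largest differences.

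Of 15 measured heat shock genes 3 rose and 10 fell with age in females (median -0.29), where 22.4% of all genes rose and 27% fell. In males 4 rose and 8 fell (median -0.14), where 23.3% rose and 29.7% fell. Falls outnumbered rises among all genes too, though by less. Rises and falls were near even among probe sets with a mean intensity of at least 50. There 36% rose and 36.8% fell in females, and 35.5% and 36.6% in males. Opposite calls came from 1 of 2 Dnajb1 probe sets in both sexes, 2 of 4 Hspa4 probe sets in females and 1 of 5 Hsp90aa1 probe sets in males. The inducible chaperone genes Hspa1a and Hspa1b were bright in all groups, with means of 15589 to 19140 and 24300 to 31372. They fell by -0.17 ± 0.031 and -0.24 ± 0.041 in females and by -0.27 ± 0.031 and -0.35 ± 0.041 in males. The mitochondrial chaperone gene Hspe1 fell by -1.39 ± 0.033 in females and -0.51 ± 0.033 in males, and Hspd1 by -0.99 ± 0.05 and -0.65 ± 0.05. The heat shock factor gene Hsf2 fell by -0.45 ± 0.15 and -1.34 ± 0.15. Hspb1 rose in both (0.61 ± 0.046 and 1.63 ± 0.046) and Hspb8 in males (0.29 ± 0.07). Dnajb4 rose in females (0.67 ± 0.037), where 1 of 3 probe sets gave the opposite call, and in males (0.11 ± 0.037). At 10.5 dpc 8 were higher and 3 lower in males (median 0.13), against 17.5% and 22.8% of all genes, with Hsf2 at 0.86 ± 0.15, the cochaperone gene Bag3 at 0.83 ± 0.052, Hspe1 at -1.4 ± 0.033 and Hspb1 at -0.95 ± 0.046. Of the higher genes, 2 of 3 Hspa1b, 1 of 5 Hsp90aa1, 1 of 2 Dnajb1 and 1 of 2 Hsph1 probe sets gave the opposite call. So did 2 of 4 probe sets of Hspa4, which was counted lower. At 11.5 dpc 7 were higher and 2 lower (median 0.13), against 19.1% and 20.9%, with Hsph1 at 0.92 ± 0.034, Bag3 at 0.71 ± 0.052, Hspe1 at -0.52 ± 0.033 and Dnajb4 at -0.19 ± 0.037, the last with 1 opposite call among 3 probe sets. Dnajb1, counted higher, had 1 opposite call among 2.

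Of 18 measured genes of integrated, oxidative and metal stress 7 rose and 10 fell with age in females (median -0.24), and 6 rose and 9 fell in males (median -0.11). Among the falls in females, 1 of 3 Atf4, 1 of 2 Sqstm1 and 2 of 3 Txnrd1 probe sets gave the opposite call. Falls outnumbered rises as among all genes, of which 22.4% rose and 27% fell in females and 23.3% and 29.7% in males. Among probe sets with a mean intensity of at least 50 the shares were near even, as given above. Ddit4, an inhibitor of growth signalling induced by hypoxia, went from a mean of 9797 to 2183 in females (-2.17 ± 0.044) and from 3809 to 953 in males (-2 ± 0.044). The DNA damage gene Gadd45a fell by -1.36 ± 0.057 in females and -0.95 ± 0.057 in males. Asns, of asparagine synthesis, fell by -0.75 ± 0.043 in females and -1.38 ± 0.043 in males. The cell cycle inhibitor Cdkn1a rose by 1.45 ± 0.14 in females and 2.04 ± 0.14 in males. Sesn2 rose by 0.92 ± 0.14 and 0.61 ± 0.14, and the metallothionein Mt2 by 0.58 ± 0.12 and 1.41 ± 0.12. None of the 18 was higher and 10 were lower in males at 10.5 dpc (median -0.3), against 17.5% and 22.8% of all genes, such as Mt2 (-1.79 ± 0.12) and Cdkn1a (-1.72 ± 0.14). Atf4, counted lower, had 1 opposite call among 3 probe sets. At 11.5 dpc 1 was higher, Hspa5 (0.43 ± 0.041), where 1 of 3 probe sets gave the opposite call. That age had 9 lower (median -0.33), against 19.1% of all genes higher and 20.9% lower, with Ddit4 at -1.2 ± 0.044 and Cdkn1a at -1.13 ± 0.14. The lists' values stand side by side with those of the members, and whether growth factor signalling or dissociation stress set the members' levels was not tested, since no array of undissociated tissue or of a treated group was analysed here.

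**Figure D5:**
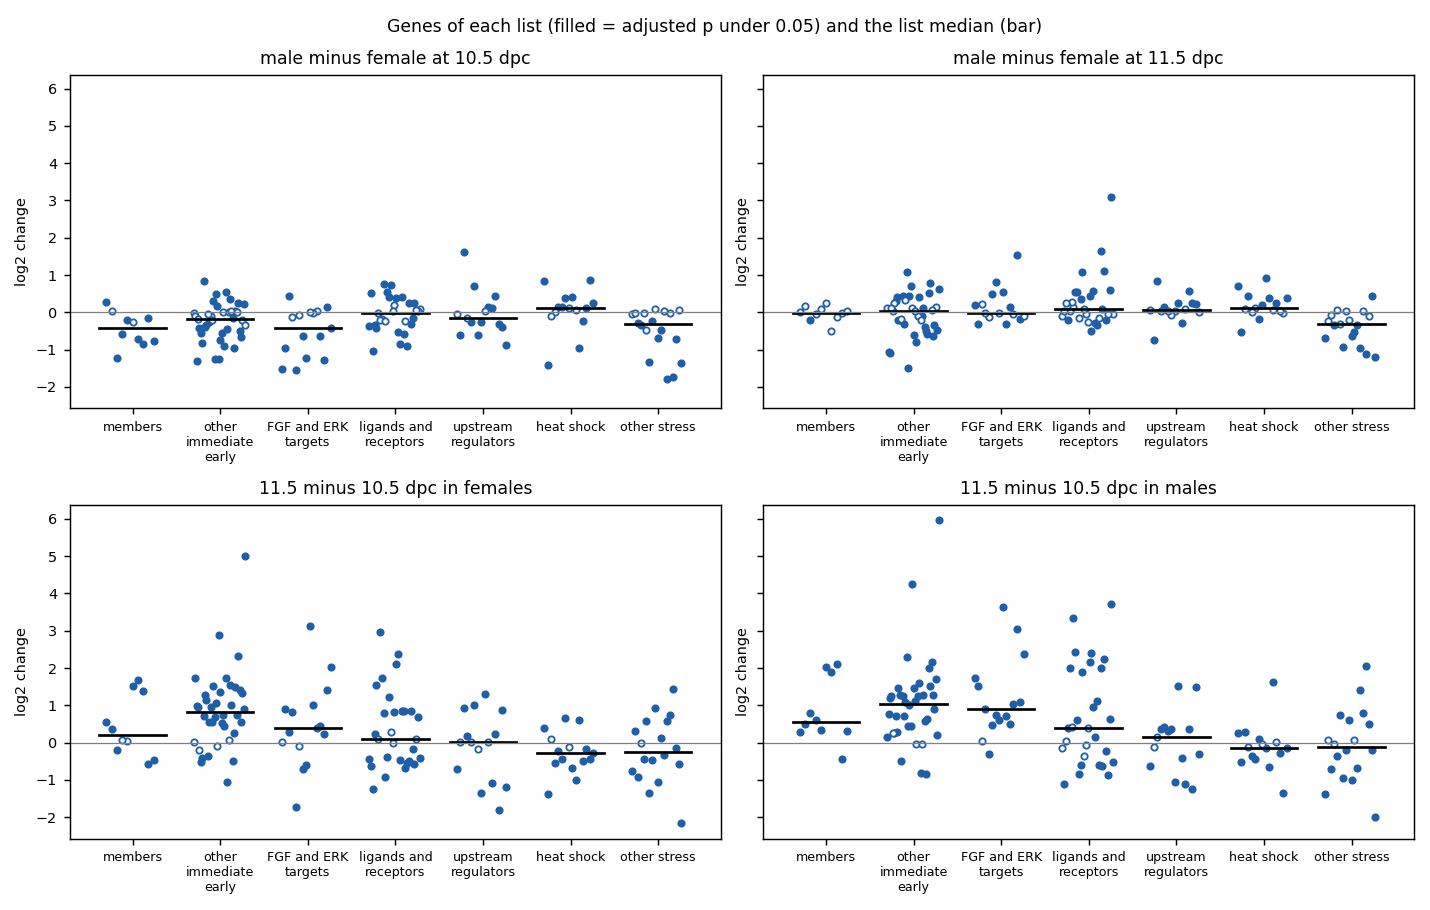
The log2 change of every measured gene of 7 lists in the 2 sex and 2 age comparisons, filled where the limma adjusted p was under 0.05, with a bar at the list median. With age the medians of the other immediate early genes (0.82 in females, 1.04 in males) and of the FGF and ERK targets (0.4 and 0.91) lie above 0, and those of the heat shock and other stress lists below it.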

How the data were processed

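The authors deposited intensity values on a linear scale for 12 Affymetrix arrays of biotin-labelled RNA, made with RMA per the submitters' processing notes (version not stated). The sources used here do not give the step that led to a linear scale. RMA corrects background, equalises the arrays' distributions and summarises probes, so changes shared by most transcripts are hidden. Precision is limited by the number of arrays.

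From these, 64 control probe sets were left out and 45037 probe sets were turned into log2(value + 1), a scale that understates the change of dim genes. A group-means model over all 12 arrays was run in limma 3.58.1 under R 4.3.3 (8 residual and 1.89 prior degrees of freedom), for 4 group contrasts and the male minus the female age change. All adjusted p-values are limma's, by the Benjamini-Hochberg method over all probe sets, with a threshold of 0.05. "Rose", "fell", "higher" and "lower" refer to that call. The fit was tested on simulated data with known changes.

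Names came from the platform annotation, updated through RefSeq (34741 of 34945 with 1 symbol). Listed genes were counted by their probe set of highest mean over all arrays, leaving those ending in _x_at or _s_at for genes with no other. In several lists other probe sets of some genes gave the opposite call, so the list counts depend on this choice. In the gene lists, the 2 largest rises and falls per contrast are named, and for many of them the value in the other sex or age is given too. Fosl1, Fosl2, Jund, Hspa1a and Hspa1b are named outside this rule, after their values were seen. The members and lists were chosen with earlier results of these data known, so no adjustment over a list alone and no test of a list is given. Alternatives varied the pseudocount, array centring, a filter on dim probe sets, the prior, the arrays in the fit, a replicate block and the probe sets of a gene. A second scaling of the list counts was added after seeing the data. Sequence windows came from RefSeq (GRCm38.p6), and 2 members without a window in the set used were not searched. That set, which also gave the shares of motifs over all windows, did not cover every chromosome.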

Additional observations from a re-analysis of the deposited data

Results flagged for a closer look

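The change from 10.5 to 11.5 dpc differed between the sexes, by the test of the difference itself, for 9 of the 12 member probe sets. That test passed for 28.1% of all probe sets and 49.5% of those with a mean intensity of at least 50. The male minus the female age change was 1.00 for Ier2, 0.80 and -0.20 for the 2 Jun probe sets (1417409_at and 1448694_at), 0.72 and 0.45 for the 2 Btg2 probe sets (1416250_at and 1448272_at) and 0.56 for Zfp36 on the log2 scale. It was 0.50 for Fosb, 0.30 for Dusp1 and -0.28 for Atf3. Those of Fosb and Dusp1 were lost in some of the fits that left out 1 array, as described below. No group was large enough for a check of single outlying arrays.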

How the results depend on the processing

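The calls of the members kept their side of the threshold under most settings. Most of the exceptions are given with the single members above. Other shifts between settings follow, some of them without a crossing of the threshold. With only probe sets of a mean intensity of at least 50 tested, the share of all probe sets called went up to 65.6% and 63.5% (sexes at 10.5 and 11.5 dpc), 75.2% and 74.3% (ages in females and males) and 53.9% (difference of the age changes), since dim probe sets were dropped, Junb among them. With the probe sets of a gene averaged, 1 of 10 members passed between the sexes at 11.5 dpc, and the mean of both Jun probe sets there was -0.059, where the brighter one alone gave 0.04 (neither past the threshold). Centring the arrays turned the female age change of Dusp1 to -0.038 and of Zfp36 to -0.012, neither past the threshold in either fit. Leaving out 1 array in turn, 2 to 4 of 12 passed between the sexes at 11.5 dpc and 7 to 9 at 10.5 dpc, 7 to 9 for the difference of the age changes, 9 with age in females and 12 in males. Values that crossed 0 in those fits were never past the threshold: Atf3 at 11.5 dpc (-0.025 to 0.014), Fos at 11.5 dpc (-0.078 to 0.0020), Dusp1 with age in females (-0.013 to 0.085) and Junb in the difference of the age changes (-0.030 to 0.38). The difference of the age changes was lost in 8 of those 12 fits for Fosb and in 3 for Dusp1. The replicate numbers did not pair the arrays, since same-numbered arrays deviated with correlations from -0.039 to 0.082. A fit with the replicate number as a block gave 8 of 12 members for the difference of the age changes, losing Fosb (0.5, adjusted p = 0.061), and left the other member counts at 9, 2, 9 and 12. Centring gave 5 falls in place of 3 among other immediate early genes with age in males. The low intensity of Junb limits what its values show.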
